A study of Mus musculus with 3 samples.

Results

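Regulatory T cells (Treg cells) from 2 mouse tumours, the melanoma B16-Ova and the colon carcinoma MC38-Ova, were divided by the amount of PD-1 on their surface, and the RNA of PD-1-high cells was compared with that of PD-1-low cells. A barcode was kept if it showed 500 genes or more and if mitochondrial genes took no more than 10% of its UMIs (unique molecular identifiers, each counting 1 captured molecule). Its larger hashtag needed at least 150 UMIs and at least 3 times the other hashtag. Treg cells had at least 1 Foxp3 UMI and no UMI of Cd8a or Cd8b1, PD-1-high cells at least 25 UMIs of the PD-1 antibody tag, and PD-1-low cells at most 14. Of 19912 barcodes, 1737 met the Treg rule. PD-1-high cells numbered 385 (220 from B16-Ova and 165 from MC38-Ova) and PD-1-low cells 579 (228 and 351). The other 773 Treg cells lay between the thresholds.

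The host animals were C57BL/6 mice with subcutaneous tumours, taken on day 14. Tumour cells of both lines carry ovalbumin. T cells were sorted on surface TCRβ, CD3 and CD90.2 and against CD11b, stained with oligonucleotide-tagged reagents and loaded as 1 capture of the 10x Genomics 5′ chemistry. B16-Ova and MC38-Ova cells each formed 1 hashtag pool. The number, age and sex of the mice are not given in the sources used here, and no untreated or unstained control is among the samples. PD-1-high and PD-1-low cells of a pool therefore come from the same animal or set of animals and share stain, capture and library. Whether each animal gave equal parts of both groups is not known. The only repeat of the comparison is the other tumour.

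PD-1, encoded by Pdcd1, is an inhibitory receptor that T cells put on their surface after antigen recognition. On binding its ligands it recruits phosphatases that dampen signalling from the T cell receptor and CD28. Treg cells depend on the transcription factor Foxp3 and restrain other T cells, and those inside tumours often carry PD-1 beside CTLA-4, TIGIT and TNF receptor family members such as OX40 and 4-1BB. Tim-3, encoded by Havcr2, is another inhibitory receptor. The lectin L-Pha comes from a plant and binds N-glycans with a β1,6 branch, which the enzyme encoded by Mgat5 adds.

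The protein and glycan values are counts of short tags that are read out beside the cDNA of the same cell. They are shown because the choice of the cells and their assignment to a tumour rest on them. Bound L-Pha carries biotin and is read through an anti-biotin tag, hash#1 marks B16-Ova and hash#2 marks MC38-Ova, and all letters are lower case because no part of a tag is singled out.
PD-1 antibody tag: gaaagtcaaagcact
Tim-3 antibody tag: attggcactcagatg
Anti-biotin tag that reads L-Pha: cggtatatcaacaga
Hash#2, the MC38-Ova hashtag: ggtcgagagcattca
Hash#1, the B16-Ova hashtag: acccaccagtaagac

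The label was checked against markers that did not choose the cells. Il2ra, the high-affinity IL-2 receptor chain, stood at 319 CPM (UMIs of the gene relative to all RNA UMIs of the summed cells, on the usual CPM scale) in B16-Ova and 429 CPM in MC38-Ova PD-1-high cells, and at 270 and 576 CPM in PD-1-low cells. CD8 cells (at least 2 Cd8a and Cd8b1 UMIs, no Foxp3 or Cd4 UMI) had 36.2 and 74.6 CPM of Il2ra. Ikzf2, which encodes the Treg factor Helios, was at 582 and 512 CPM in PD-1-high cells, at 566 and 482 CPM in PD-1-low cells and at 112 CPM in CD8 cells of either pool. Tnfrsf4 (OX40), Ctla4 and Izumo1r were also several times higher in both Treg groups than in CD8 cells. Foxp3 itself, used by the rule, stood at 402 and 393 CPM in PD-1-high and 459 and 452 CPM in PD-1-low cells. In droplet data free RNA can supply a lone UMI. A single Foxp3 UMI was all that 32.2% of PD-1-high and 42.0% of PD-1-low cells held. Of 4516 barcodes that were assigned to a pool and held Foxp3 UMIs, 2779 also held CD8 UMIs, and the rule left these out. Foxp3 averaged 99.1 CPM in barcodes with CD8 UMIs, against 121 CPM in all barcodes assigned to a pool. How many cells met the Treg rule through free Foxp3 RNA was not tested.

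Cells with more surface PD-1 also held more of each other tag and more RNA. The PD-1 tag chose the groups, so its medians of 30 UMIs in PD-1-high and 12 UMIs in PD-1-low cells of both pools are a description only. The Tim-3 tag had a median of 27 UMIs in PD-1-high cells of either pool, against 18 UMIs in PD-1-low cells of either pool, a ratio of 1.5 in each. L-Pha medians were 850 UMIs (B16-Ova) and 620 UMIs (MC38-Ova) in PD-1-high cells, against 393 and 413 UMIs in PD-1-low cells. The upper quartile of PD-1-low cells, 651 UMIs in B16-Ova and 672 UMIs in MC38-Ova, lay above the lower quartile of PD-1-high cells in both pools, so the L-Pha distributions overlapped widely.

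The cell's own hashtag, which marks the pool, moved in the same direction. Its medians were 689 and 733 UMIs in PD-1-high cells, against 396 and 441 UMIs in PD-1-low cells. RNA medians were 7194.5 and 6902 UMIs, against 4814.5 and 5020 UMIs. Over all Treg cells the Spearman correlation of the PD-1 tag was 0.48 (B16-Ova, n = 777 cells) and 0.41 (MC38-Ova, n = 960 cells) with the Tim-3 tag, 0.40 and 0.25 with L-Pha, 0.41 and 0.35 with the own hashtag and 0.23 and 0.17 with RNA. These values describe cells of 1 capture, whose tags share depth and cell size. When PD-1-high and PD-1-low cells were matched on own-hashtag UMIs within each pool, the L-Pha ratio shrank to 1.34 and 1.05, while the Tim-3 ratio was 1.25 and 1.49. With RNA and own hashtag matched together the log2 ratio of the medians, averaged over the pools, was 0.46 for Tim-3 and 0.15 for L-Pha, against 0.58 and 0.85 unmatched. Where the groups were formed instead from the highest and lowest 25% of PD-1 per own-hashtag UMI, it was 0 for Tim-3 and −0.92 for L-Pha.

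**Figure D1:**
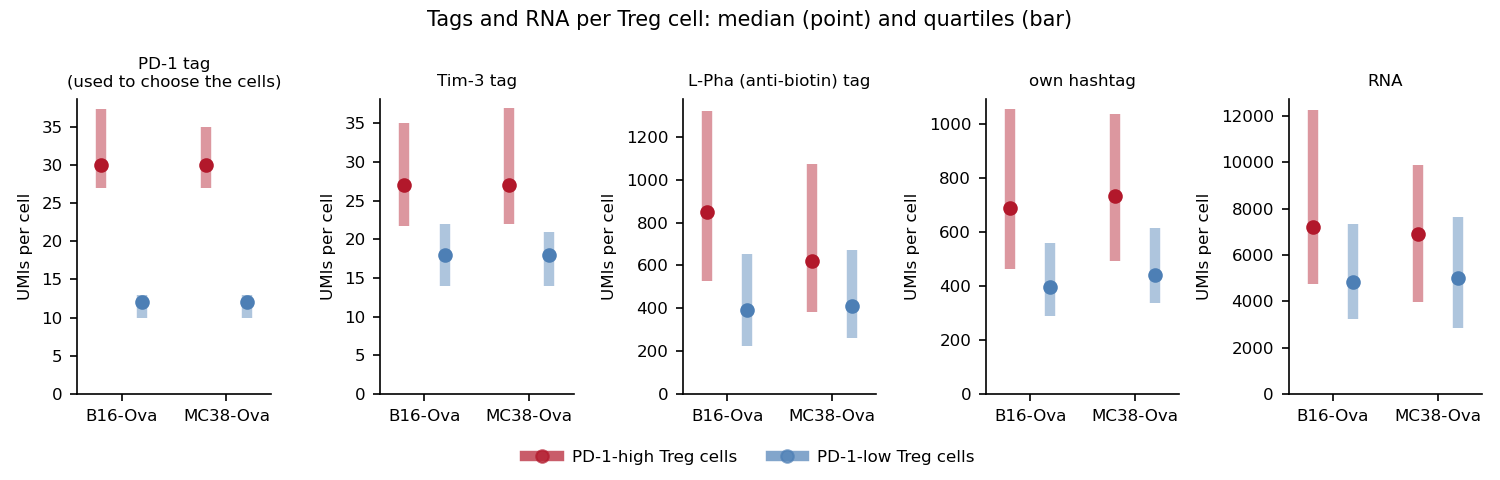
UMIs per cell (vertical axes, linear from 0) of the PD-1, Tim-3 and L-Pha tags, the own hashtag and RNA, in PD-1-high (red, left) and PD-1-low (blue, right) Treg cells of each pool. Points are medians and bars run from the lower to the upper quartile. The PD-1-high median is the higher one in all 5 panels, including the hashtag panel.

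A small number of barcodes held markers of other cell types. Barcodes with 3 or more UMIs of macrophage, stromal, melanoma, granulocyte and mast cell or erythroid markers, or of Flt3, Itgax, Xcr1 and Siglech, are called mixed here, a definition chosen after the data were seen. They numbered 11 of 220 and 9 of 165 PD-1-high cells, against 6 of 228 and 13 of 351 PD-1-low cells. Their median RNA was 12385 and 17844 UMIs in PD-1-high cells and 6145.5 and 11032 UMIs in PD-1-low cells. The list of 7 macrophage and monocyte markers summed to 478 and 58.2 CPM in PD-1-high cells, against 21.6 and 102 CPM in PD-1-low cells, with 94.6% of the UMIs of the B16-Ova PD-1-high sum in 5 cells. The 5 melanoma markers summed to 29.5 and 24.8 CPM in PD-1-high cells, against 40.1 and 518 CPM in PD-1-low cells, and 5 cells held 96.7% of the last. The 4 stromal markers summed to 4.36 and 317 CPM in PD-1-high cells, against 7.71 and 151 CPM in PD-1-low cells.

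Without mixed barcodes the macrophage sums were 23.9 and 26.7 CPM in PD-1-high against 16.6 and 17.4 CPM in PD-1-low cells. The melanoma sums were then 21.9 and 22.5 against 29.2 and 20.4 CPM, and the stromal sums 3.12 and 7.51 against 7.90 and 4.60 CPM. These markers define a mixed barcode, so a fall of their sums follows from the definition. The 6 dendritic cell markers, which include Cd74 and H2-Ab1, summed to 996 and 1206 CPM in PD-1-high and 505 and 425 CPM in PD-1-low cells, and without mixed barcodes to 673 and 185 CPM against 507 and 242 CPM. Siglech was at 0 in all 4 sums and Flt3 and Xcr1 in both B16-Ova sums, and 5 cells held 88.5% of the list's UMIs in MC38-Ova PD-1-high cells. The 7 NK and NKT markers, with Ncr1 at 0 in all sums but the PD-1-low MC38-Ova one, summed to 247 and 208 CPM in PD-1-high and 139 and 361 CPM in PD-1-low cells. In B16-Ova PD-1-high cells 5 cells held 71.8% of these UMIs, and without mixed barcodes the sums were 89.5 and 163 CPM against 138 and 312 CPM. The 5 granulocyte and mast cell markers summed to 0, 0, 1.54 and 0 CPM in the 4 sums. Barcodes with 150 or more UMIs of both hashtags made up 16.5% of those that passed the cell filter, and pairs of cells from the same pool cannot be seen this way. The comparisons of RNA below are therefore also given without mixed barcodes.

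**Figure D2:**
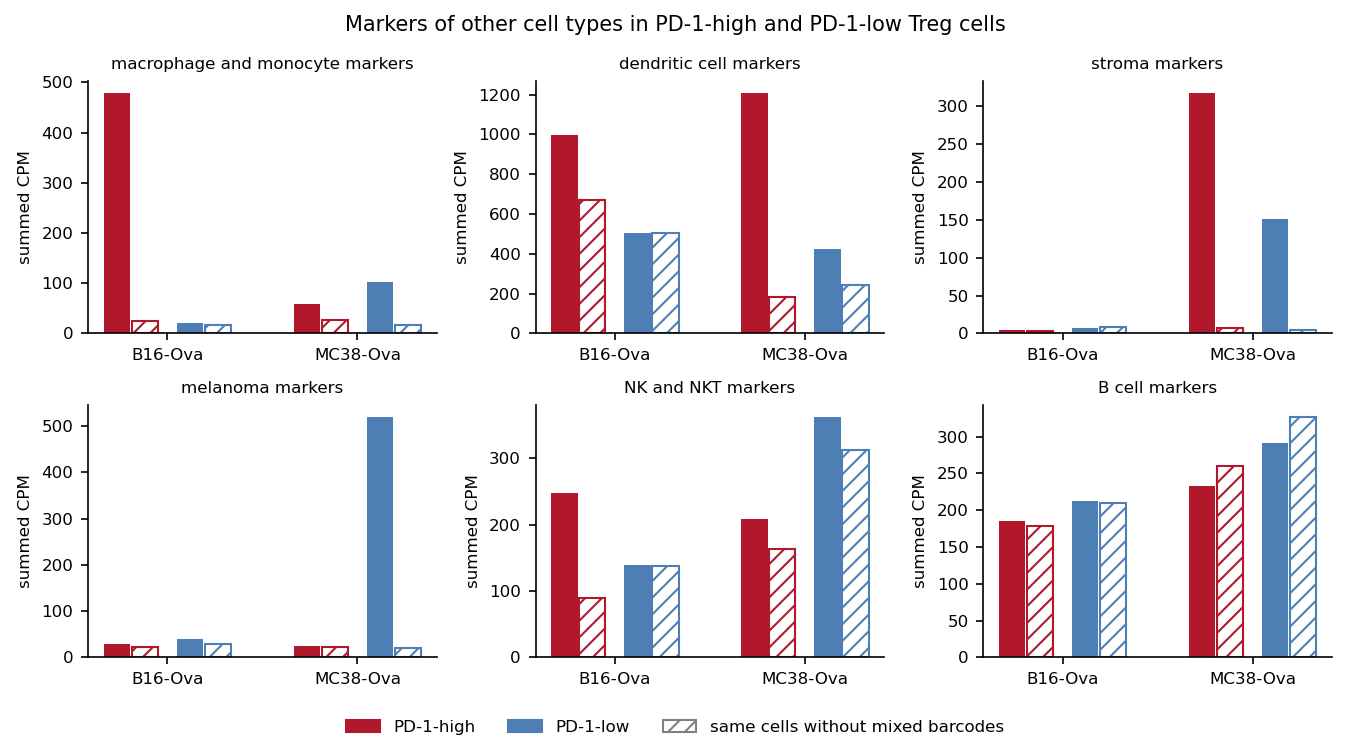
Summed CPM (vertical axes, linear from 0) of 6 marker lists in PD-1-high (red) and PD-1-low (blue) Treg cells of each pool. Filled bars are all cells and hatched bars the same cells without mixed barcodes. The high bars for macrophage, stromal and melanoma markers fall to 29.2 CPM or less when those barcodes are left out. Such a fall follows from the definition, since these markers define a mixed barcode.

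Few genes differed between PD-1-high and PD-1-low Treg cells. Pdcd1 rose about 3-fold with its protein, Gzmb and Areg fell, and Nrn1, Ramp1 and Cd83 rose. Of the 38 genes called, 9 were called again without mixed barcodes, and Cd83 was not among those 9. For this test the UMIs of each group and pool were summed, giving 4 sums of 2066336 and 1408634 RNA UMIs (PD-1-high) and 1297489 and 2255036 RNA UMIs (PD-1-low). They were fitted with edgeR's quasi-likelihood test with the pool as a block. Of 8853 genes tested, 38 passed a Benjamini-Hochberg adjusted p of 0.05, or 0.429%. The called genes comprised 26 higher (0.294%) and 12 lower (0.136%) in PD-1-high cells. The median log2 fold change of all genes was 0.00. With 1 residual degree of freedom the spread was mostly borrowed across genes, and sums from the same pools vary less than separate mice would, so the adjusted p-values are too small as statements about mice.

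Pdcd1 (chromosome 1, 94038305 to 94052553, minus strand, GRCm38) followed the protein. It stood at 250.2 CPM in B16-Ova and 204 CPM in MC38-Ova PD-1-high cells, against 90.9 and 55.4 CPM in PD-1-low cells. The groups did not overlap, and the ratio was 2.75 (95% counting interval 2.25 to 3.39) in B16-Ova and 3.69 (2.98 to 4.59) in MC38-Ova. The fitted log2 fold change was 1.66 ± 0.16 (SE, edgeR adjusted p = 2.99e-05). Cells between the thresholds had 159 and 89.8 CPM, between the 2 groups in each pool. Intervals here and below cover counting error only.

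Cells near the thresholds are given as a description. Those just inside the upper threshold (25 or 26 PD-1 UMIs) had 247 CPM (48 cells, B16-Ova) and 227 CPM (33 cells, MC38-Ova) of Pdcd1, against 191 CPM (58 cells) and 135 CPM (55 cells) at 23 or 24 UMIs. At the lower threshold, cells with 13 or 14 UMIs had 73.0 CPM (80 cells) and 64.6 CPM (123 cells), and cells with 15 or 16 UMIs had 98.9 CPM (74 cells) and 71.5 CPM (134 cells). Cell by cell the relation was loose, with a Spearman correlation between the PD-1 tag and Pdcd1 CPM of 0.32 in B16-Ova and 0.27 in MC38-Ova. The own hashtag gave 0.10 and 0.13 with Pdcd1 CPM in the same cells.

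Gzmb, which encodes the cytotoxic protease granzyme B, was lower in PD-1-high cells. It stood at 823 and 2720.4 CPM in PD-1-high cells of B16-Ova and MC38-Ova, against 1403 and 3808 CPM in PD-1-low cells. MC38-Ova cells had more Gzmb than B16-Ova cells in both groups, and within each pool the PD-1-high value was the lower one. The ratio was 0.59 (0.55 to 0.63) in B16-Ova and 0.71 (0.69 to 0.74) in MC38-Ova, and the fitted log2 fold change was −0.63 ± 0.10 (SE, edgeR adjusted p = 0.00858). Areg, which encodes the epidermal growth factor receptor ligand amphiregulin, a repair factor made by tissue Treg cells, stood at 593 and 333 CPM in PD-1-high cells, against 853 and 489 CPM in PD-1-low cells. Its fitted log2 fold change was −0.54 ± 0.11 (SE, edgeR adjusted p = 0.0385).

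Nrn1, Ramp1 and Cd83 were higher in PD-1-high cells of both pools. Nrn1 encodes neuritin, a lipid-anchored surface protein known from neurons and also made by T cells, and Ramp1 encodes a partner chain of the receptor for the neuropeptide CGRP. Nrn1 stood at 47.9 and 17.7 CPM in PD-1-high cells, against 13.1 and 5.32 CPM in PD-1-low cells (log2 fold change 1.80 ± 0.30, SE, edgeR adjusted p = 0.0105). Its sums were small, 99 and 25 UMIs against 17 and 12 UMIs. Ramp1 stood at 148 and 44.7 CPM in PD-1-high cells, against 60.9 and 21.7 CPM in PD-1-low cells (log2 fold change 1.17 ± 0.20, SE, edgeR adjusted p = 0.0106). Cd83, a surface molecule of activated dendritic cells that Treg cells also make, stood at 55.7 and 28.4 CPM in PD-1-high cells, against 24.7 and 11.1 CPM in PD-1-low cells (log2 fold change 1.24 ± 0.25, SE, edgeR adjusted p = 0.0342). Its UMIs were 115 and 40 against 32 and 25. Without mixed barcodes Cd83 no longer passed (log2 fold change 0.99, edgeR adjusted p = 0.392).

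Across finer steps of the PD-1 tag, and without mixed barcodes, Pdcd1 and Gzmb moved in opposite directions. Pdcd1 was 261 CPM (95% counting interval 220 to 308, 42 cells) in B16-Ova and 311 CPM (240 to 396, 27 cells) in MC38-Ova cells with 40 or more PD-1 UMIs, against 96.2 CPM (70.5 to 128, 80 cells) and 40.6 CPM (25.4 to 61.5, 107 cells) in cells with 10 or fewer. Gzmb was 707 CPM (638 to 782) and 2245 CPM (2047 to 2458) in the highest step, against 1510.4 CPM (1402 to 1625) and 4134 CPM (3965 to 4309) in the lowest. Areg followed no such order in MC38-Ova, where it was 411 CPM (329 to 507) in the highest step and 400.5 CPM (349 to 457) in the lowest. In B16-Ova it was 329 CPM (282 to 381) in the highest step and 678 CPM (606 to 756) in the lowest.

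**Figure D3:**
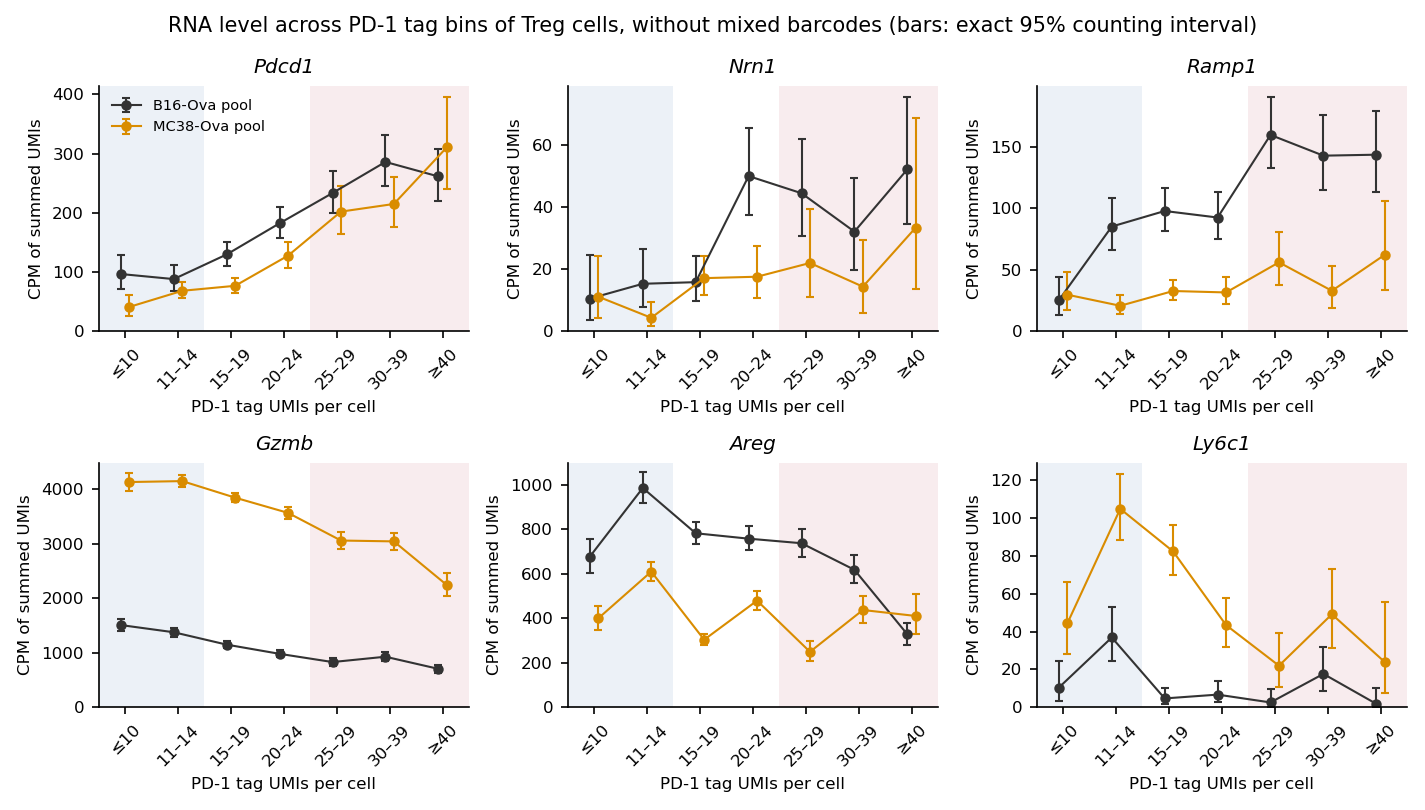
CPM of the summed UMIs (vertical axes, linear from 0) of 6 genes in Treg cells grouped by PD-1 tag UMIs (horizontal axes), for the B16-Ova (dark) and MC38-Ova (orange) pools without mixed barcodes. Bars are exact 95% counting intervals, and the blue and red bands mark PD-1-low and PD-1-high cells. Pdcd1 climbs to 261 and 311 CPM and Gzmb drops to 707 and 2245 CPM in the highest step, while Areg and Ly6c1 follow no steady order.

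Besides Hspa1a, described with its list below, most of the other named rises were of antigen-presentation and myeloid genes. H2-Aa, H2-Eb1 and H2-Ab1, which encode MHC class II chains, had log2 fold changes of 2.64, 2.57 and 1.79. Cd74, the invariant chain of MHC class II, was at 921 and 987 CPM in PD-1-high cells, against 482 and 357 CPM in PD-1-low cells (log2 fold change 1.20, edgeR adjusted p = 0.000128). Lyz2, the lysozyme of macrophages, stood at 149 and 32.7 CPM in PD-1-high cells, against 3.08 and 6.21 CPM in PD-1-low cells, and 5 cells held 97.4% of its UMIs in B16-Ova PD-1-high cells. The chemokine gene Ccl8 stood at 254 and 2.84 CPM in PD-1-high cells, against 6.94 and 1.33 CPM in PD-1-low cells, with 99.8% of the first in 5 cells. Ccl2, Cst3, Lgals3 and Psap completed this group with log2 fold changes of 1.39, 1.06, 0.97 and 0.89.

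None of these was called without mixed barcodes. Lyz2, which itself helps to define a mixed barcode, and Ccl8 and Ccl2 then had too few UMIs to be tested. Of 8532 genes 10 were then called (0.117%), 3 higher (0.0352%) and 7 lower (0.082%), and 9 of the 10 were among the 38. Cd74, H2-Aa, H2-Ab1, Cst3, Lgals3 and Psap, none of which defines a mixed barcode, had log2 fold changes of 0.03, 0.54, 0.24, 0.04, 0.10 and 0.05, and H2-Eb1 had −0.17, each with an edgeR adjusted p of 0.999. The melanocyte genes Dct, Mlana and Tyrp1, which fell in all cells (log2 fold change −3.23, −2.85 and −2.33), rested on the MC38-Ova PD-1-low sum. There Dct stood at 209 CPM with 97.7% of its UMIs in 5 cells, and it was at 7.26 and 9.94 CPM in PD-1-high and 13.9 CPM in B16-Ova PD-1-low cells. Those 5 cells carried the hashtag of the carcinoma MC38-Ova, not that of the melanoma.

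Pdcd1, Nrn1 and Ramp1 were the 3 rises left without mixed barcodes, with log2 fold changes of 1.69, 1.68 and 1.17 (edgeR adjusted p = 9.39e-05, 0.0438 and 0.0276). Gzmb and Areg stayed called at −0.65 and −0.62 (edgeR adjusted p = 0.00238 and 0.0134). Gm42418, a long non-coding locus that overlaps ribosomal RNA sequence, was lower by −0.43 (edgeR adjusted p = 0.00477), with 6469.9 and 7510.1 CPM in PD-1-high cells, against 9429 and 9932 CPM in PD-1-low cells over all barcodes. Ly6c1, a surface antigen of memory T cells, was not called over all barcodes (log2 fold change −0.21, edgeR adjusted p = 1.00). Without mixed barcodes it was at 7.29 and 33.4 CPM in PD-1-high cells, against 26.9 and 87.9 CPM in PD-1-low cells (log2 fold change −1.55, edgeR adjusted p = 0.0224). Over all barcodes 5 cells held 92.1% of its UMIs in MC38-Ova PD-1-high and 79.4% in B16-Ova PD-1-low cells, and reads of its near-identical neighbour Ly6c2 may be split with it. The other 3 falls were the T cell receptor segments Trbv15, Trbv26 and Trav3-1, whose levels depend on which clones a sum holds. Trbv15 was at 46.9 and 39.8 CPM in PD-1-high cells, against 120 and 84.7 CPM in PD-1-low cells.

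**Figure D4:**
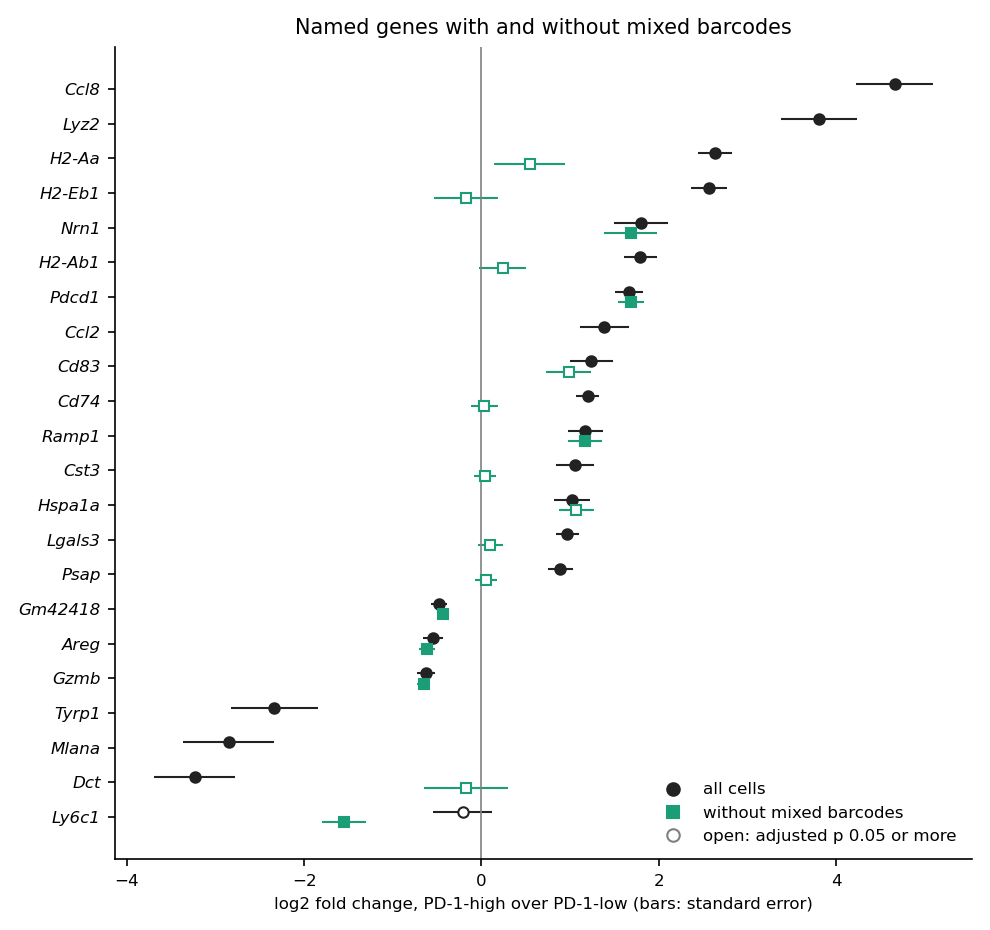
Fitted log2 fold change of PD-1-high over PD-1-low Treg cells (horizontal axis, bars are standard errors) for the named genes, over all cells (black circles) and without mixed barcodes (green squares). Open symbols did not pass an adjusted p of 0.05, and a missing square means that too few UMIs were left to test the gene. Pdcd1, Nrn1, Ramp1, Gzmb, Areg and Gm42418 keep their place, while Cd74, Cst3, Lgals3 and Psap move to near 0. The MHC class II chain genes H2-Aa, H2-Eb1 and H2-Ab1 shrink and no longer pass.

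The gene lists held few calls, as did all genes (0.429%), and changes of 1.5-fold were mostly not recovered on counts simulated from the sums. Of the 14 inhibitory receptor genes tested, Pdcd1 alone was called and the median log2 fold change was 0.05. With RNA matched the median was 0.36, with 10 of 14 above 0, and Pdcd1 was again the 1 call; a second draw gave 0.27, with 9 of 14 above 0. Lag3 stood at 343 and 253 CPM in PD-1-high cells, against 307 and 228 CPM in PD-1-low cells (log2 fold change 0.15 ± 0.12, SE). Tigit was at 748 and 628 CPM in PD-1-high cells and at 682 and 570 CPM in PD-1-low cells (0.13 ± 0.11). Ctla4 was at 1637 and 1373 CPM in PD-1-high cells, against 1777 and 1570 CPM in PD-1-low cells (−0.16 ± 0.10). None of the 3 passed the test, and each difference was smaller than the gap between the pools. Tox, a transcription factor of exhausted T cells, was at 89.0 and 44.7 CPM in PD-1-high cells and 61.7 and 26.2 CPM in PD-1-low cells, which did not pass either (log2 fold change 0.63 ± 0.21, edgeR adjusted p = 0.609).

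Tim-3 was read both as protein and as RNA, on scales that were not tested against each other. The Tim-3 tag was 1.5 times higher in PD-1-high cells, and 1.25 and 1.49 times with the own hashtag matched. Havcr2 RNA was at 82.3 and 49.7 CPM in PD-1-high cells, against 62.4 and 42.6 CPM in PD-1-low cells. The Havcr2 difference did not pass the test (log2 fold change 0.31 ± 0.20, SE, edgeR adjusted p = 1.00).

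Of 23 effector Treg genes tested, 2 were called, the falls of Gzmb and Areg, beside 0.429% of all genes, with a list median of −0.03. With RNA matched none of the 23 was called. Klrg1, a receptor of effector Treg cells, stood at 223 and 211 CPM in PD-1-high cells, against 264 and 304 CPM in PD-1-low cells, and did not pass (log2 fold change −0.39 ± 0.13, edgeR adjusted p = 0.609). Il10 was at 61.9 and 75.3 CPM in PD-1-high cells and at 121 and 91.8 CPM in PD-1-low cells, also without passing. Of 13 Treg identity genes Cd83 was the 1 call (median 0.02). Ikzf2 was flat at a log2 fold change of 0.06 ± 0.11, and Il2ra had opposite signs in the pools. Of 17 resting and memory genes none was called, with a median of −0.21 and 3 of 17 above 0. Tcf7, a factor of resting and memory T cells, was at 33.9 and 52.5 CPM in PD-1-high cells, against 73.2 and 51.0 CPM in PD-1-low cells.

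The lists for PD-1 ligands and signalling (13 genes tested), costimulatory receptors (12), T cell receptor response (23), chemokine receptors and homing (17), cytokines and chemokines (11), cytotoxicity (11), interferon (20), glycolysis and hypoxia (20), oxidative phosphorylation (20), and cholesterol and lipids (15) held no call over all cells, and their medians lay between −0.08 and 0.09. With RNA matched as described below, the median was 0.29 for T cell receptor response (21 of 23 above 0), 0.20 for costimulatory receptors (10 of 12) and −0.30 for oxidative phosphorylation (1 of 20), and none of these genes was called. In a second draw by the same rule these medians were 0.19 (19 of 23 above 0), 0.15 (8 of 12) and −0.23 (1 of 20). Hspa1a was the 1 call among 20 heat shock and dissociation genes. It was at 197 and 29.1 CPM in PD-1-high cells, against 82.5 and 19.1 CPM in PD-1-low cells, and 5 cells held 82.1% of its UMIs in B16-Ova PD-1-high cells. Reads of Hspa1a and its near-identical copy Hspa1b may be split between them. No gene of the 17 tested for N-glycan branching and capping was called (median −0.13). Mgat5 had 8.23 and 14.2 CPM in PD-1-high cells, against 20.8 and 14.2 CPM in PD-1-low cells, so the higher L-Pha tag of PD-1-high cells stood beside no higher Mgat5 RNA. Both sides of this contrast are weak. Mgat5 was at a low level in every sum, and the L-Pha ratio was 1.34 and 1.05 with the own hashtag matched.

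Because PD-1-high cells held more RNA, equal numbers of both groups were drawn from 20 bins of RNA within each pool. This kept 149 B16-Ova and 161 MC38-Ova cells of each group, with median RNA of 5497 and 6893 UMIs in PD-1-high and 5744 and 6854 UMIs in PD-1-low cells. Of 7958 genes, 18 were called (0.226%), 12 higher (0.151%) and 6 lower (0.0754%), and 10 of them were among the 38. Pdcd1 rose by 2.21 ± 0.17 on the log2 scale (SE, edgeR adjusted p = 0.000551). Cd83 and Hspa1a rose by 1.80 and 1.75, and Lilr4b, a receptor gene of the Lilrb4 family, by 1.60. The signalling regulator Rgs2 and the chemokine gene Ccl5 rose by 0.78 and 0.68. Gzmb and Areg had log2 fold changes of −0.41 and −0.26 and did not pass (edgeR adjusted p = 0.122 and 0.443). Nor did Nrn1 (2.15) and Ramp1 (1.04, edgeR adjusted p = 0.13 and 0.0949), which passed in a second draw (2.09 and 1.29, edgeR adjusted p = 0.0364 and 0.0473). Over all cells DESeq2 called Pdcd1 and Gzmb but not Nrn1, Ramp1, Cd83 or Areg. Lyz2, H2-Eb1, H2-Aa, H2-Ab1, Cst3 and Cd74 also rose, and Dct and Gpnmb fell, all with mixed barcodes present.

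In this matched draw the proliferation genes Mki67, Rrm2, Pclaf and Stmn1 fell (log2 fold change −1.004, −1.46, −1.51 and −0.94). Of 30 proliferation genes 1 was above 0, with a median of −0.80. A second draw of cells by the same rule called none of these 4, with log2 fold changes of −0.56 (Mki67), −0.89 (Rrm2), −0.93 (Pclaf) and −0.60 (Stmn1). Without matching no proliferation gene was called, the median was 0.11, and the pools disagreed. Pclaf, for example, stood at 171 and 76.0 CPM in PD-1-high cells, against 84.0 and 139 CPM in PD-1-low cells, higher in PD-1-high cells of B16-Ova and lower in those of MC38-Ova. Cells with 3 or more UMIs of 13 core cell-cycle genes numbered 61 of 220 and 39 of 165 PD-1-high cells, against 31 of 228 and 66 of 351 PD-1-low cells. Without these cells RNA matching called 11 of 6704 genes (0.164%), 7 higher (0.104%) and 4 lower (0.0597%). None of the 16 proliferation genes still tested was among them (median 0.06), and Mki67 and Stmn1 had log2 fold changes of 0.21 and −0.33. Leaving these cells out uses cell-cycle genes itself, so it also lowers what can be seen of that list.

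With mixed barcodes left out as well, RNA matching kept 145 and 153 cells of each group and called 79 of 7629 genes (1.04%), 46 higher (0.603%) and 33 lower (0.433%). In this fit the spread was wholly borrowed across genes, so a gene's own disagreement between pools did not count against it. Gzmb and Areg were lower again (log2 fold change −0.73 and −0.80), as were Klrg1 (−0.44) and Gzmc, another granzyme gene (−1.54). Granzyme genes did not all fall. Of 11 cytotoxic genes tested, Gzmc was the 1 called lower and Gzmk the 1 called higher. Nrn1, Ramp1 and Cd83 were higher by 1.86, 1.04 and 1.13. The chemokine gene Ccl5 was higher by 0.51, the chemokine receptor gene Cxcr6, which retains T cells in tissue, by 0.80, and the transcription factor gene Bhlhe40, induced by T cell activation, by 0.56. Of the 4 called proliferation genes, all lower, Pclaf and Rrm2 had log2 fold changes of −0.86 and −0.85.

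Matching on UMIs of the own hashtag, the tag that marks the pool, called 23 of 7426 genes (0.31%), 7 higher (0.0943%) and 16 lower (0.215%). Pdcd1 was higher by 2.13 and Ramp1, Nrn1 and Cd83 by 1.44, 1.73 and 1.55, while Gzmb was lower by −0.78 (edgeR adjusted p = 5.10e-05). The MHC class II genes turned round in these cells, H2-Aa to −1.42 and Cd74 to −0.51, without passing. Without mixed barcodes the same matching called 6 of 7083 genes (0.0847%). Pdcd1 (2.41) and Cd83 (2.37) were higher (0.0282%), and Gzmb (−0.69), Ly6c1 (−1.94), Tyrobp and Trav10 lower (0.0565%). With cells matched on RNA and hashtag together, 128 of each group in each pool, Pdcd1 was the single call of 7262 genes (0.0138%, log2 fold change 2.18, edgeR adjusted p = 0.0375). The same matching without mixed barcodes called 27 of 7066 genes (0.382%), 10 higher (0.142%) and 17 lower (0.241%). Pdcd1 (2.06), Nrn1 (1.84), Ramp1 (1.71) and Cd83 (1.66) were then among the higher genes, and Gzmb (−0.66) and Areg (−0.87) among the lower ones. Total degrees of freedom, which grow with the spread borrowed across genes, differed between these fits. They were 53.6 and 53.2 in the fits with 23 and 27 calls, against 15.7 and 7.2 in those with 6 calls and 1 call. The counts of calls are therefore not comparable between these fits.

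The same thresholds were then applied to CD8 cells (610 and 727 PD-1-high, 485 and 681 PD-1-low) and to CD4 conventional cells (55 and 68 PD-1-high, 168 and 140 PD-1-low, with at least 1 Cd4 UMI and none of Foxp3, Il2ra, Ikzf2, Cd8a or Cd8b1), to ask whether the RNA that goes with surface PD-1 differs between classes. In CD8 cells 9 of 14 inhibitory receptor genes and 6 of 12 cytotoxic genes rose with surface PD-1, beside 2.8% of all genes, and in Treg cells Pdcd1 was the 1 rise among them. Differences between the classes were called for some of these genes but not for Tigit (−1.004, edgeR adjusted p = 0.188), and their number depended on the draw when RNA was matched. Of 9810 genes, 520 were called in CD8 cells (5.3%), 275 higher (2.8%) and 245 lower (2.5%), and 3 in CD4 conventional cells (0.0306%). Without mixed barcodes these counts were 560 of 9266 (6.04%), 273 higher (2.95%) and 287 lower (3.1%), and 4 (0.0432%). The difference between the Treg and the CD8 effect was called for 16 genes (0.163%), 15 lower (0.153%) and 1 higher (0.0102%) in Treg cells.

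Among inhibitory receptors, Lag3 had a log2 fold change of 0.15 in Treg cells and 2.01 in CD8 cells (difference −1.86 ± 0.31, SE, edgeR adjusted p = 0.0428). Havcr2 had 0.31 in Treg cells and 1.72 in CD8 cells (−1.41 ± 0.23, edgeR adjusted p = 0.0428), where it stood at 153 and 171 CPM in PD-1-high and 39.7 and 55.1 CPM in PD-1-low CD8 cells. The Tim-3 tag medians of CD8 cells were 29 and 28 UMIs in PD-1-high and 16 and 17 UMIs in PD-1-low cells. Entpd1, the ectonucleotidase CD39, had −0.19 in Treg cells and 1.54 in CD8 cells, and Ctla4 −0.16 and 0.96. The costimulatory receptor gene Tnfrsf9 (4-1BB) had −0.01 in Treg cells and 1.53 in CD8 cells. All 3 differences passed the test.

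The granzyme and perforin genes differed too. Gzmb had −0.63 in Treg cells and 1.21 in CD8 cells (difference −1.85 ± 0.15, SE, edgeR adjusted p = 0.000319). Gzmb was at 823 and 2720.4 CPM in PD-1-high and 1403 and 3808 CPM in PD-1-low Treg cells, and at 1703 and 3287 CPM in PD-1-high and 687 and 1391 CPM in PD-1-low CD8 cells, so the order of the groups was opposite in the 2 classes in both pools. Prf1, perforin, had 0.03 in Treg cells and 2.07 in CD8 cells, Gzmc −1.84 and 2.88, and the protease inhibitor gene Serpine2 −0.47 and 2.65. Areg had −0.55 in Treg cells and 1.44 in CD8 cells. Ccr7, the receptor that guides cells to lymph nodes, was the gene on the other side, with 0.53 in Treg cells and −0.97 in CD8 cells (difference 1.503 ± 0.23, SE, edgeR adjusted p = 0.0359).

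For Pdcd1 no difference between classes passed. It had a log2 fold change of 1.66 ± 0.17 in Treg cells, 2.01 ± 0.15 in CD8 cells and 2.20 ± 0.21 in CD4 conventional cells (SE). The Treg minus CD8 difference was −0.35 ± 0.23 and the Treg minus CD4 conventional difference −0.54 ± 0.27, neither of which passed (edgeR adjusted p = 0.765 and 0.972). Nrn1 had 1.80 in Treg cells and 1.43 in CD8 cells. Ramp1 had 1.17 in Treg cells and −0.64 in CD8 cells, a difference of 1.81 ± 0.32 that missed the threshold (edgeR adjusted p = 0.0672). Against CD4 conventional cells 1 gene was called (0.0102%), the receptor segment Trbv15 (−3.49).

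In this 12-sum fit, where all classes share 1 estimate of the spread, the Treg fall of Gzmb had an edgeR adjusted p of 0.0532 and that of Areg 0.44. Without mixed barcodes 15 genes differed between Treg and CD8 cells (0.162%), 1 higher (0.0108%) and 14 lower (0.151%), of which 14 were among the 16, but Cxcl2 and S100a6 no longer did (differences 0.06 and −0.89). With RNA matched within each class and pool the first draw called 0 genes by edgeR, with 589 of 8961 at an unadjusted p under 0.05, and the second draw called 16 of 9058 (0.177%), 3 higher (0.0331%) and 13 lower (0.144%). Of these, 9 were among the 16 of all cells, and Havcr2, Prf1, Tnfrsf9, Il1r2, Irf8, Serpine2 and Cxcl2 were not. All 16 had the same sign in both draws. In the first draw Ccr7, Ctla4, Entpd1, Gzmb, Il1r2, Lag3, Sdcbp2, Prf1 and Gzmc had edgeR adjusted p-values between 0.081 and 0.115, and the other 7 between 0.254 and 0.694. There the difference shrank by more than 1.5 times for Irf8 (−0.66), Tnfrsf9 (−0.82), Serpine2 (−1.95) and Gzmc (−2.995), and in the second draw that of Prf1 was −0.91.

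**Figure D5:**
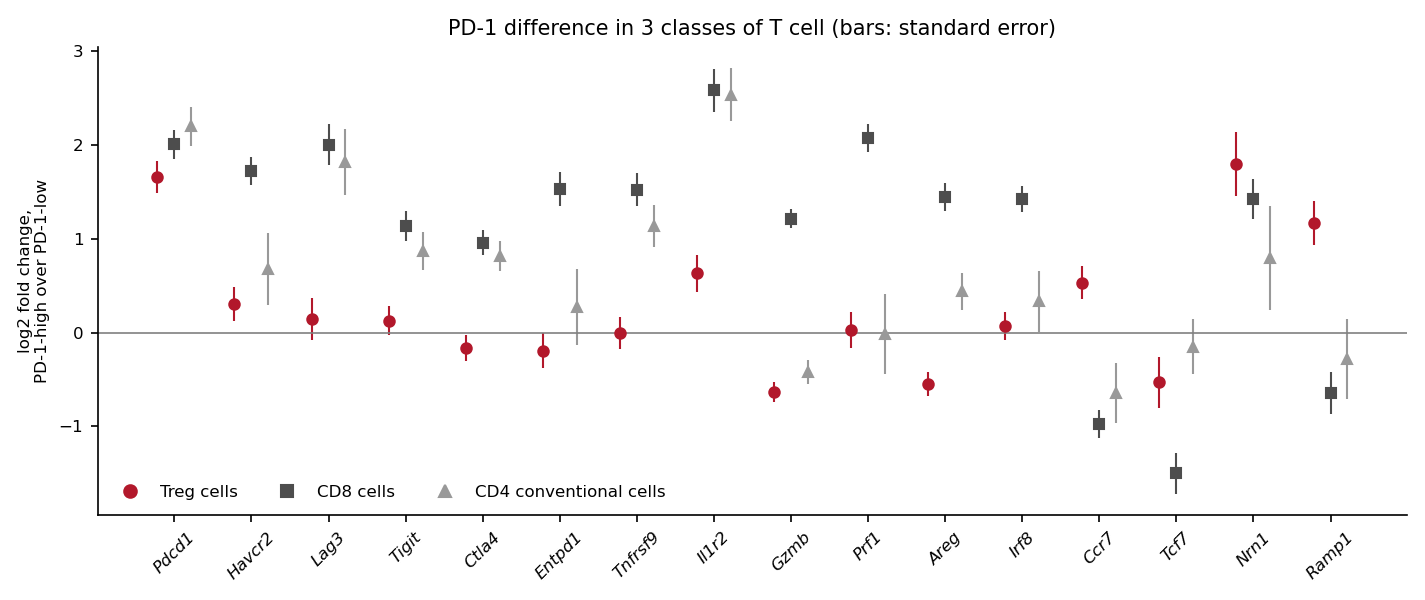
Fitted log2 fold change of PD-1-high over PD-1-low cells (vertical axis, bars are standard errors) for 16 genes in Treg (red circles), CD8 (dark squares) and CD4 conventional cells (grey triangles). Pdcd1 lies between 1.66 and 2.20 in all 3 classes, whereas Havcr2, Lag3, Entpd1, Tnfrsf9, Gzmb, Prf1, Areg and Irf8 are near or below 0 in Treg cells and 1.21 or more in CD8 cells.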

How the data were processed

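RNA, antibody tags and hashtags were read in 1 capture, and the authors deposited them as 1 matrix of raw UMI counts, 31053 genes and 5 tags in 19912 barcodes. Per the submitters' processing notes the tools were Cell Ranger 3.1.0, R 3.6.1 and Seurat 3.1.0, with mm10. The annotation release is not given in the sources used here, and the receptor library was not analysed here. Gene coordinates are those of GENCODE vM21 (GRCm38), matched by gene ID.

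Counts were summed by class, PD-1 group and pool and fitted with edgeR 4.0.16 in R 4.3.3 (TMM, filterByExpr, quasi-likelihood F-test, pool as block, Benjamini-Hochberg adjusted p under 0.05 over all genes tested). A 12-sum fit of Treg, CD8 and CD4 conventional cells gave the differences between classes. Total degrees of freedom were 16.0 over all Treg cells and 10.9 with RNA matched. On counts simulated from the sums, 96.7% of 4-fold and 20.2% of 1.5-fold changes were recovered (8627 genes) and 7.76% of calls were false. With RNA matched the shares recovered were 88.7% and 18.6% (7779 genes). The simulated spread followed the trend across genes, with no spread of a gene's own. It held no disagreement between pools on the PD-1 effect and no few cells with most UMIs of a gene. Real sums hold these, so the shares may be too favourable, which was not tested. Ratios within a pool have exact 95% intervals. No doublet caller was run, since the 2 hashtags mark only pairs of cells from different pools.

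Alternatives covered filters, normalization, DESeq2 1.42.0, the block, matching, thresholds and cell exclusions. The members, gene lists and tests were chosen with earlier results of these data known. Named genes are the called genes with the largest rise or fall, a mean of 20 CPM or more and the same direction in both pools, leaving out receptor segments, with members of each list and Pdcd1, Havcr2, Lag3, Tigit, Ctla4, Tox, Tcf7, Il2ra, Ikzf2 and Mgat5. Receptor segments and genes named for calls without mixed barcodes or between classes were chosen after their values were seen.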

Additional observations from a re-analysis of the deposited data

Results flagged for a closer look

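The PD-1 effect, as the log2 fold change of PD-1-high over PD-1-low cells, differed between Treg and CD8 cells for 16 genes by the test of the difference itself. For inhibitory and costimulatory receptors the Treg minus CD8 difference was −1.86 for Lag3, −1.41 for Havcr2, −1.73 for Entpd1, −1.12 for Ctla4 and −1.53 for Tnfrsf9. For cytotoxic genes it was −1.85 for Gzmb, −2.05 for Prf1, −4.72 for Gzmc and −3.12 for Serpine2. For secreted factors, decoy receptors and others it was −1.99 for Areg, −1.95 for Il1r2, −2.45 for Cxcl2, −1.35 for Irf8, −1.40 for Sdcbp2 and −0.78 for S100a6, and it was 1.503 for Ccr7. Cxcl2 and S100a6 no longer passed without mixed barcodes (differences 0.06 and −0.89). With RNA matched the first draw called 0 of 8961 genes, and the second called 16 of 9058 (0.177%), of which 9 were among these. Gzmc rested on 2.90 and 12.8 CPM in PD-1-high and 27.0 and 25.3 CPM in PD-1-low Treg cells. Between Treg and CD4 conventional cells Trbv15 differed by −3.49.

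Among the genes whose pools went opposite ways were Tcf7, Mgat5 and Il2ra; whether the pools differ was not tested. The log2 difference of Tcf7 was −1.11 within B16-Ova but 0.046 within MC38-Ova. Mgat5 had −1.32 within B16-Ova but 0.014 within MC38-Ova. Il2ra had 0.24 within B16-Ova, with 319 CPM in PD-1-high and 270 CPM in PD-1-low cells, and below 0 in MC38-Ova, with 429 and 576 CPM.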

How the results depend on the processing

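Pdcd1 kept its direction in all 24 alternatives with a test (log2 fold change 1.47 to 2.41) and passed in 20, and Gzmb kept its direction in all 24 (−1.19 to −0.41) and passed in 17. Areg was less stable, running from −0.87 to 0.14 and passing in 8 of 24. Nrn1 (1.14 to 2.15) and Ramp1 (0.86 to 1.71) each passed in 13 of 23. Cd83 (0.99 to 2.37) passed in 14 of 22. The count of genes called over all Treg cells, 38, moved to 109 with no filter on low counts, 8 with DESeq2, 0 with no pool block (edgeR, 183 at an unadjusted p under 0.05), 23 with the own hashtag matched, 1 with RNA and hashtag matched, 18 with RNA matched, 3 for PD-1 of at least 40 against at most 10, 108 for the highest against the lowest 25% of PD-1 per own-hashtag UMI, 9 with a stricter hashtag call, 13 without the cells above the 90th percentile of RNA, 17 with cells thinned to 2000 UMIs, 10 without mixed barcodes and 6 without them and with the hashtag matched. By edgeR it was 0 without cells holding 5 or more UMIs of other cell types (224 at an unadjusted p under 0.05) and 0 without cells holding 3 or more proliferation UMIs (56 of 1109 tested), settings that left 67 and 94 PD-1-high against 131 and 220 PD-1-low cells, and 21 and 17 against 37 and 70. The RNA-matched count, 18, moved to 211 with no filter, 7 with at least 100 UMIs, 3 with DESeq2, 0 with no pool block (304 unadjusted), 0 for PD-1 of 40 against 10 (279 unadjusted), 71 for PD-1 per hashtag UMI, 11 with 2 Foxp3 UMIs, 7 with a Cd4 UMI, 6 with the stricter hashtag call, 4 without the top of RNA, 0 and 2 without cells holding other-cell or proliferation UMIs, 79 without mixed barcodes and 11 without core cycling cells.

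The 16 genes differing between Treg and CD8 cells became 202 with no filter and 0 with RNA matched. The 1 gene differing from CD4 conventional cells became 50, 12 and, with a second draw, 4. The log2 ratio of Tim-3 medians, 0.58, was 0.45 with the hashtag matched, 0.46 with RNA and hashtag matched, 1.01 for 40 against 10, 0.49 with the stricter hashtag call and 0 for PD-1 per hashtag UMI. That of L-Pha, 0.85, was 0.24, 0.15 and, for PD-1 per hashtag UMI, −0.92, and ran from 0.59 to 1.11 with either pool left out.

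Directions turned as follows, as log2 fold changes. For PD-1 per hashtag UMI they were −4.96 (Ccl8), −3.77 (Lyz2), −3.94 (H2-Aa), −3.22 (H2-Eb1), −1.86 (H2-Ab1), −1.92 (Ccl2), −1.32 (Cd74), −1.02 (Cst3), −0.16 (Lgals3), −0.99 (Psap), 0.43 (Gm42418), −0.32 (Lag3) and 0.54 (Mgat5). With the own hashtag matched they were −1.42 (H2-Aa), −0.97 (H2-Eb1), −0.24 (H2-Ab1), −0.021 (Ccl2), −0.51 (Cd74), −0.29 (Cst3), −0.16 (Psap) and −0.010 (Lag3). With L-Pha matched they were −1.67 (H2-Aa), −1.84 (H2-Eb1), −0.97 (H2-Ab1), −0.74 (Cd74), −0.45 (Cst3), −0.30 (Psap), −0.028 (Lag3) and 0.17 (Tcf7). Without the top of RNA they were −0.14 (H2-Aa), −0.56 (H2-Eb1), −0.22 (H2-Ab1) and 0.37 (Tyrp1). For 40 against 10 they were −1.74 (H2-Ab1), −0.94 (Cd74), −0.012 (Cst3), −0.066 (Psap) and −0.027 (Lag3). With RNA and hashtag matched they were −0.36 (Hspa1a), −0.0030 (Lgals3), 0.14 (Dct), −0.17 (Lag3) and 0.048 (Il2ra). Without mixed barcodes H2-Eb1 was −0.17, with the hashtag also matched Cst3, Hspa1a and Lag3 were −0.035, −0.069 and −0.10, and with RNA and hashtag matched Cd74, Hspa1a and Lag3 were −0.065, −0.054 and −0.057. Without other-cell UMIs they were −1.04 (Hspa1a), −0.035 (Psap), −0.20 (Lag3) and 0.25 (Mgat5). Without proliferation UMIs they were −0.66 (Psap), 0.14 (Areg), 0.084 (Il2ra) and −0.10 (Ikzf2). With 2 Foxp3 UMIs they were −0.13 (Havcr2), −0.10 (Tigit), 0.17 (Tcf7) and −0.078 (Ikzf2). With either pool left out Tcf7 ran from −1.11 to 0.046, Mgat5 from −1.32 to 0.014 and Il2ra from −0.42 to 0.24. The causes were not tested. The pool paired each PD-1-high sum with its PD-1-low sum as the block of the fit, and the labels give no replicate numbers for any other pairing. Pools replace replicates, so no spread between mice is known.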
